A study of Mus musculus with 4 samples.

Results

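Kinesins, centromere proteins and the kinases and regulators of mitosis were followed in mouse embryonic stem (ES) cells kept with or without leukemia inhibitory factor (LIF). Genes were taken by name: every symbol that starts with Kif or Cenp followed by its number or letter, and 19 mitotic regulators, from Aurka and Plk1 to Top2a and Mki67. This gave 76 of the 18193 genes with at least 1 probe set of a single symbol, and 70 of them were bright enough to be tested, among 14445 tested genes. Of the 19 regulators 18 were found, and Ccnb1 could not be read from a probe set of its own. Each gene was read from its brightest probe set.

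The cells were CGR8, an established line of mouse ES cells grown on gelatin in medium with knock-out serum replacement. The series held 4 Affymetrix arrays, 2 for cells given 1000 U/ml of LIF throughout and 2 for cells moved to LIF-free medium a day after passage and grown in it for 2 days. The labels give no other difference in genotype or agent between the groups. The arrays of each group carried the numbers 1 and 2, and no label says that they came from separate cultures, so p-values reflect variation from array to array only, which could be technical.

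Kinesins are motor proteins that walk along or take apart microtubules. Some build and position the mitotic spindle, move chromosomes or act in cytokinesis, whereas others carry vesicles and organelles along axons or act in cilia. Centromere proteins mark the site on each chromosome where the kinetochore forms and hold it to spindle microtubules, and the mitotic kinases (the Aurora, Polo, Bub, Ttk and Cdk1 kinases) time entry into mitosis, chromosome attachment and exit. Many of these genes are transcribed late in the cell cycle, and undifferentiated ES cells are known for fast cycling with a short first gap phase.

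Promoters of late cell cycle genes are known to carry the cell cycle genes homology region (CHR), with the letters TTTGAA or TTCGAA, often below CCAAT boxes. RefSeq promoter windows of assembly GRCm38.p6, from 250 bases before to 50 after a start site, were found for 67 of the 76 genes. The windows below run from 200 bases before to 20 bases after the start and are read 5′ to 3′ on the gene's strand, with the CHR letters and CCAAT, on either strand, in capitals. Ccnb2 (chr9:70421535-70421754, minus strand) and Kif23 (chr9:61946780-61946999, minus strand) are shown as a cyclin and a cytokinesis kinesin with both motifs, Cenpi (chrX:134307884-134308103, plus strand) as the centromere gene with the smallest p, and Kif1c (chr11:70700348-70700567, plus strand) and Kif21a (chr15:91049932-91050151, minus strand) as the kinesins with the smallest p.
Ccnb2: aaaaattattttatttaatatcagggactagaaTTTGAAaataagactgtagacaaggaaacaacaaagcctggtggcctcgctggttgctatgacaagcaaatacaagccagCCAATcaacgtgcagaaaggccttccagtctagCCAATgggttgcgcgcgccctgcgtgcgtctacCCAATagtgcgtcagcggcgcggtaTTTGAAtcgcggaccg
Kif23: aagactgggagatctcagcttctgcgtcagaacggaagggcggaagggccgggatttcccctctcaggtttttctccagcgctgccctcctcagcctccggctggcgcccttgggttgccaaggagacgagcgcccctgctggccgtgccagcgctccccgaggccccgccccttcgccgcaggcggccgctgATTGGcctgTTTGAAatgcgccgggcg
Cenpi: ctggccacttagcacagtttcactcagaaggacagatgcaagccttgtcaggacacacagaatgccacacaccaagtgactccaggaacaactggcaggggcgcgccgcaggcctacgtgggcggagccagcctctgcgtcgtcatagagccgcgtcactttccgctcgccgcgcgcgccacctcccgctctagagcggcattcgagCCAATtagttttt
Kif1c: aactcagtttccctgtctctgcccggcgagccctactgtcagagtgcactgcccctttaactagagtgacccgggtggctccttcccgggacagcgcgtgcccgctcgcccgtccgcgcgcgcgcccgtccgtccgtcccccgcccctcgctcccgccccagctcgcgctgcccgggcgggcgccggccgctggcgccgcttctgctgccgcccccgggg
Kif21a: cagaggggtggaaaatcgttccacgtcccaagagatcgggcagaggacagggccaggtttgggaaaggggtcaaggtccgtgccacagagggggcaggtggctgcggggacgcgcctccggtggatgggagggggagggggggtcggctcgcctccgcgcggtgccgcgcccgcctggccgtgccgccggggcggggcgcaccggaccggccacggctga
The Ccnb2 window held 2 TTTGAA and 3 CCAAT, the Kif23 window held 1 TTTGAA and, on the other strand, 1 CCAAT, and the Cenpi window held 1 CCAAT. The windows shown for Kif1c and Kif21a held none of these letters in a row. No capitals of one motif overlapped those of another.

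Over all genes with a window, TTTGAA or TTCGAA stood in 27 of 46 mitotic and centromere genes (58.7%), in 4 of 21 transport and other kinesins (19.05%) and in 16.5% of tested genes. CCAAT stood in 31 of the 46 (67.4%), in 8 of the 21 (38.1%) and in 42.9% of tested genes. Both stood in 23 of the 46, in 3 of the 21 (14.3%) and in 6.70% of tested genes. By role, the CHR letters were in all 6 windows of mitotic kinases and in 9 of 10 of mitotic kinesins, Kif18a being the one without, but in 5 of 17 of constitutive centromere genes. The median GC content of the windows was 59.0% for the mitotic and centromere genes, 67.0% for the transport and other kinesins and 60.0% for tested genes. These are counts of letters and were set against no binding data.

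The arrays were alike in scale, with a mean signal of 500.003 to 500.004 after the lowest and highest 2% of probe sets were left out. The median over all probe sets was 70.2 and 59.8 with LIF and 95.7 and 65.7 without. The 18S ribosomal RNA control separated the numbers in both groups, at 462 and 451.3 on the arrays numbered 1 against 5150 and 2990 on those numbered 2, so changes within each number are given beside the pooled ones. The 3′ to 5′ signal ratio of Actb also separated the numbers. It was 1.32 and 1.44 on the arrays numbered 1 against 1.83 and 1.77 on those numbered 2. ES cell markers were present on all arrays, with different changes: Pou5f1 read 9035 and 8246 with LIF and 7212 and 10632 without (log2 change 0.02). Nanog, Tdgf1, Sox2 and Utf1 were lower on both arrays without LIF, at log2 changes of -1.41, -1.48, -0.52 and -0.26. Lin28a was higher on both, at 0.87. Dppa4 and Dppa5a overlapped between groups, at -0.16 and -0.10. None of these markers passed the test at an adjusted p of 0.05. The 8 ES cell markers summed to 90755 and 106812 with LIF and 62877 and 86302 without, and the 8 primitive endoderm markers to 3369 and 8287 with LIF and 3865 and 14545 without. Bright genes dominate such sums. Of the 8 endoderm markers 1, Ttr, was higher at an unadjusted p of 0.05 and 0 were lower. Ttr read 2.8 and 31.4 with LIF and 98.5 and 995.7 without (log2 change 5.06). The median log2 change of these 8 was 0.47, and Foxa2 alone was below 0, at -0.12. The part of the ES cell and endoderm markers in the results below was not tested.

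None of the 70 tested genes passed limma's test at a Benjamini-Hochberg adjusted p of 0.05, where 0.145% of all tested genes did. At an unadjusted p of 0.05, 4 genes were higher without LIF, all of them transport kinesins (7.16% of all tested genes were), and 1, Cenpi, was lower (3.73% of all). In 11 genes both arrays without LIF lay above both arrays with LIF (27.3% of all tested genes), and in 18 both lay below (15.2% of all). A difference of at least 2-fold between groups that did not overlap was seen for 3 genes higher without LIF (7.36% of all) and for 0 lower (2.12% of all). Single arrays moved these counts: the 5 genes at an unadjusted p of 0.05 became 3 and 2 without the arrays with LIF numbered 1 and 2 and 9 without the array without LIF numbered 2, and the 3 at 2-fold became 1 and 5 without the arrays without LIF numbered 1 and 2. The median log2 change, without LIF minus with LIF, was -0.10 over the 70 genes and 0.09 over all tested genes. The median log2 changes of the 49 mitotic and centromere genes and the 21 transport and other kinesins lay on different sides of 0, at -0.18 and 0.36. The 21 were all tested Kif genes not listed as mitotic. They held Kif2a, at a log2 change of -0.08, while Kif2c was counted as mitotic. Quantile normalization and a common median per array shifted the median of all genes from 0.09 to 0.02 and -0.20. Under both, the medians of the role groups described next kept their sign, except that of Top2a and Mki67, which turned from -0.01 to 0.06 under quantile normalization. These 2 classes also differed in brightness, since 38 of the 49 lay in the brightest of 4 equal signal classes of tested genes and 2 of the 21 did, and the median log2 change of all tested genes ran from 0.43 in the dimmest class through 0.20 and 0.06 to -0.06 in the brightest. In the brightest class 24.6% of all genes had both arrays without LIF below both with LIF, and of the 49 genes 15 did. The part of signal in these changes was not tested.

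**Figure D1:**
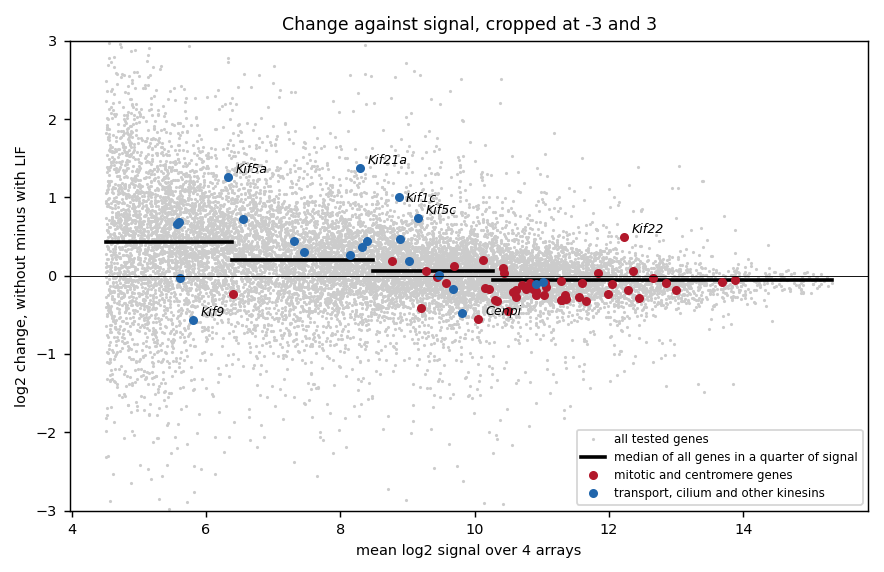
Log2 change without minus with LIF against the mean log2 signal over 4 arrays, for all tested genes (grey), mitotic and centromere genes (red) and transport, cilium and other kinesins (blue). Black bars are medians of all tested genes in 4 equal classes of signal, from 0.43 to -0.06; 39 genes beyond 3 either way are not drawn. Most red points lie at the bright end, slightly below 0. Of the named kinesins, Kif21a, Kif1c, Kif5a and Kif5c lie above 0 at lower signal. Kif9 lies below 0 at low signal, and Kif22 lies above 0 at the bright end.

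All 7 mitotic kinases had a log2 change below 0, with a median of -0.28 (-0.32 within number 1 and -0.20 within number 2) and a range of -0.32 to -0.09. Each was lower without LIF within both numbers, as 24.9% of all tested genes were, and in 4 (Aurka, Aurkb, Bub1 and Bub1b) the groups did not overlap. All 7 lay in the brightest signal class, where 59.4% of all genes had a change below 0. In 24.6% of that class both arrays without LIF lay below both with LIF. No kinase passed the test, and at the main scaling the 95% interval of all 7 lay within 2-fold either way. With each gene read as the mean of its probe sets, dim ones included, Bub1b and Ttk turned to 0.19 and 0.02.

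Aurka, the Aurora kinase of the spindle poles, read 3824 and 3445 with LIF and 2649 and 3176 without. Both arrays without LIF were the lower ones, and the means were 3635 ± 268 and 2913 ± 373 (SD, n = 2 each). The log2 change was -0.32 with an SE of 0.18 (limma adjusted p = 0.579), at -0.53 within number 1 and -0.12 within number 2. Aurkb, the Aurora kinase of the chromosomal passenger complex that corrects attachments, read 2083 and 2103 with LIF and 1723 and 1811 without. Its arrays within a group were close together and the groups did not overlap, at a log2 change of -0.24 (SE 0.17, limma adjusted p = 0.664).

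Bub1, a kinetochore kinase that guards cohesion and the checkpoint, read 5866 and 6535 with LIF and 4711 and 5472 without (log2 change -0.29, SE 0.17, limma adjusted p = 0.602). Bub1b, the checkpoint protein BubR1, read 3573 and 3079 with LIF and 2791 and 2681 without (log2 change -0.28, SE 0.17, limma adjusted p = 0.613). In both genes the higher array without LIF stayed below the lower array with LIF. Ttk, the kinase Mps1 that starts the spindle checkpoint, read 3291 and 2584 with LIF and 2635 and 2153 without. Its groups overlapped, because the array with LIF numbered 2 lay below the array without LIF numbered 1, and the log2 change was -0.29 (SE 0.21, limma adjusted p = 0.664).

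Plk1, the Polo kinase of mitotic entry and spindle assembly, read 2888 and 1743 with LIF and 2541 and 1610 without. Here the array number separated the values more than LIF did: the log2 difference of number 2 from number 1 was -0.69, and that of the groups was -0.15 (95% interval -0.89 to 0.59). Cdk1, the kinase that drives entry into mitosis, read 6693 and 8702 with LIF and 6155 and 8363 without. It had the smallest change of the kinases, -0.09 (SE 0.22, limma adjusted p = 0.917), and again the numbers lay farther apart (0.41) than the groups. Over all tested genes the number gap exceeded the group gap in 48.5%, and over these 70 genes in 35.

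The cyclins and Cdc20 gave 3 negative changes with a median of -0.18 (-0.35 within number 1 and -0.02 within number 2), and of -0.04 without the array without LIF numbered 1. Ccna2, the A-type cyclin of DNA replication and mitotic entry, read 4742 and 4094 with LIF and 3658 and 3861 without, so the groups did not overlap (log2 change -0.23, SE 0.17, limma adjusted p = 0.688). Its other probe set read 3331 and 3053 with LIF and 3046 and 3409 without and overlapped, with a log2 change of 0.02. Ccnb2, a B-type cyclin that activates Cdk1, read 5412 and 5222 with LIF and 4245 and 5159 without. The groups did not overlap, but within the arrays numbered 2 the log2 change was -0.02, against -0.35 within number 1. Cdc20, which activates the anaphase-promoting complex, read 13037 and 13997 with LIF and 11454 and 14296 without, and its groups overlapped (log2 change -0.08, turning to 0.02 under quantile normalization).

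Of the 6 checkpoint, kinetochore and spindle proteins, 4 had changes below 0 and the median was -0.10, which turned to 0.04 without the array without LIF numbered 1. Tpx2, which activates Aurka and nucleates microtubules, read 2785 and 2979 with LIF and 2191 and 2550 without, the only one of the 6 with both arrays lower without LIF (log2 change -0.29, SE 0.18, limma adjusted p = 0.61). In further probe sets of Tpx2 the groups overlapped, at log2 changes of -0.02, -0.11 and 0.003. Birc5, the survivin subunit of the chromosomal passenger complex, read 8128 and 9424 with LIF and 7070 and 8385 without. It was lower without LIF within each number, at -0.20 and -0.17, while the groups overlapped (limma adjusted p = 0.769). Ndc80 and Nuf2 are partners in the complex that grips microtubules at the kinetochore. Ndc80 read 1111 and 1442 with LIF and 945 and 1327 without (log2 change -0.18, limma adjusted p = 0.847). Nuf2 read 772.9 and 808.6 with LIF and 913.9 and 809.7 without (log2 change 0.12, limma adjusted p = 0.872; -0.17 with a common median per array). The partners thus had opposite signs, each within its error. Mad2l1 and Bub3, which form the checkpoint signal that holds Cdc20, had log2 changes of -0.03 and 0.06, with standard errors of 0.17 for both. Mad2l1 read 6226 and 6932 with LIF and 5917 and 6964 without, and Bub3 read 5498 and 4827 with LIF and 5445 and 5317 without.

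Top2a and Mki67, the chromosome proteins often read as marks of proliferation, stayed close to 0. Top2a, the topoisomerase that untangles DNA, read 14855 and 15893 with LIF and 11602 and 18780 without, so that the arrays without LIF were both the lowest and the highest (log2 change -0.06, SE 0.24, 95% interval within 2-fold). Mki67, the protein that coats mitotic chromosomes, read 3384 and 3896 with LIF and 3397 and 4055 without (log2 change 0.03, SE 0.18, limma adjusted p = 0.97). Both signs turned with scaling: Top2a was 0.03 under quantile normalization and Mki67 was -0.26 with a common median.

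**Figure D2:**
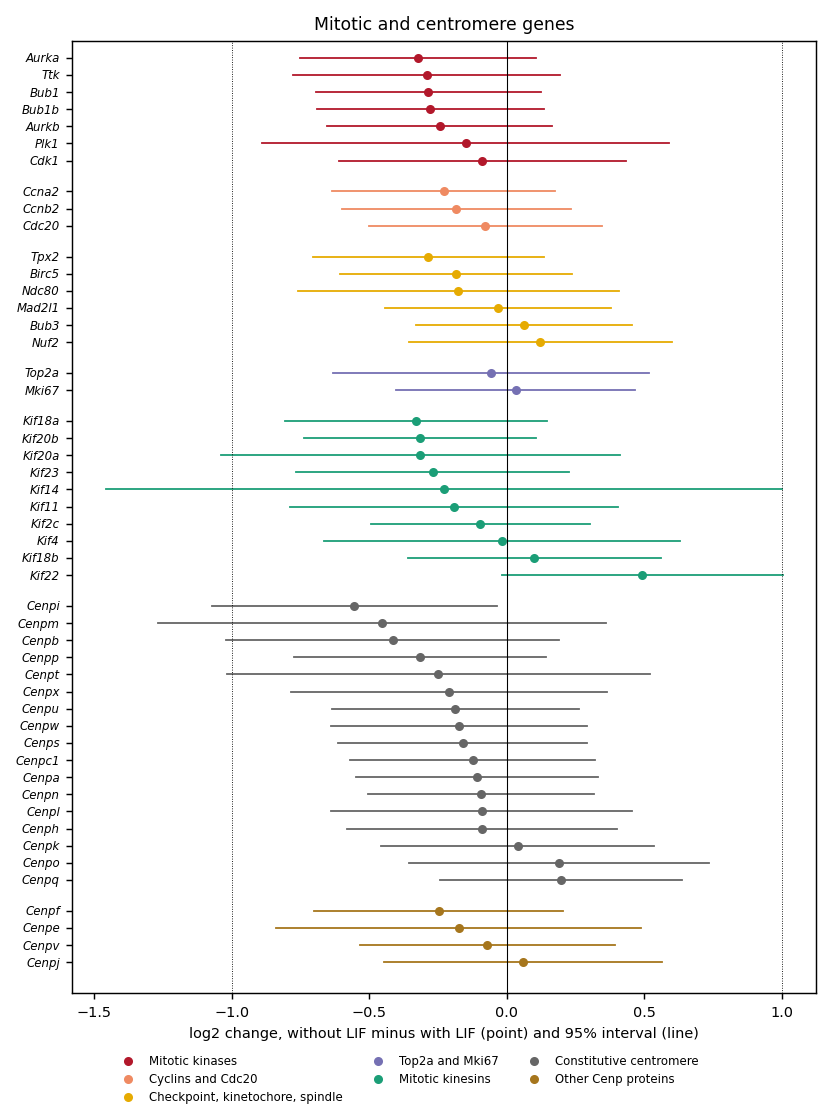
Log2 change without minus with LIF (point) with its 95% interval (line) for the 49 tested mitotic and centromere genes, coloured by role; dotted lines mark 2-fold. Of the 49 changes 40 lie below 0, 42 intervals stay within 2-fold, and the interval of Cenpi is the only one that leaves out 0.

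The intervals reflect variation from array to array and leave out the choice of scaling. A common median per array moved the median of all tested genes from 0.09 to -0.20, and no intervals are given for it. Over the 18 regulators of the rule the intervals at the main scaling ran from -0.89 to 0.60. None of these reached 2-fold either way. Over all 49 mitotic and centromere genes they ran from -1.46 to 1.00, and 42 stayed within 2-fold. The widest was that of Kif14, a kinesin of cytokinesis with dim signals, which read 67.6 and 124.5 with LIF and 103.9 and 59.0 without.

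Of the 11 mitotic kinesins on the array, 10 were tested. Kif15, a spindle motor that can take over from Kif11, was too dim, at 3.0 and 27.2 with LIF and 59.5 and 17.2 without. Changes were below 0 for 8 of the 10, with a median of -0.21 (-0.06 within number 1 and -0.23 within number 2). This median was -0.37 and -0.02 without the arrays without LIF numbered 1 and 2. In 3 genes both arrays without LIF lay below both with LIF (15.2% of all tested genes, and 24.6% of the brightest class). Kif20b, a kinesin of cytokinesis, read 3033 and 2590 with LIF and 2306 and 2202 without (log2 change -0.31, SE 0.18, limma adjusted p = 0.582). Kif18a, which dampens chromosome movement on the metaphase plate, read 1400 and 1512 with LIF and 1291 and 1038 without (log2 change -0.33, SE 0.20, limma adjusted p = 0.604). Kif2c, a kinesin that takes apart microtubules at centromeres, was the third, at a log2 change of -0.10. Its brightest probe set carries a suffix that marks probes able to cross-hybridise. In its other probe sets above the filter the groups overlapped, at log2 changes of -0.08, -0.42 and 0.12.

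Kif23 and Kif20a, motors of the central spindle and cleavage, were lower without LIF within each number while their groups overlapped. Kif23 read 1943 and 1519 with LIF and 1542 and 1316 without (log2 change -0.27, SE 0.21). Kif20a read 3578 and 2161 with LIF and 2776 and 1802 without (log2 change -0.31, SE 0.31), with numbers that lay -0.68 apart. Kif11, the motor that pushes spindle poles apart, followed the same order, at 2424 and 1763 with LIF and 2161 and 1515 without. In Kif20a and Kif11, as in Plk1, the arrays numbered 1 were the high ones in both groups.

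Kif22, a chromosome arm motor, was the mitotic kinesin whose probe sets disagreed at high signal. Its brightest probe set read 4099 and 4020 with LIF and 6895 and 4733 without, a log2 change of 0.49 (SE 0.22, limma adjusted p = 0.476). The other probe sets read 3638 and 4001 with LIF against 2785 and 2874 without, and 1806 and 1783 with LIF against 1250 and 1183 without. None of the 3 overlapped between groups, and the changes of the other pair were -0.43 and -0.56. The brightest carries the suffix that marks probes able to cross-hybridise, so no direction is given for the gene.

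The 17 constitutive centromere proteins, which stay at the centromere through the cell cycle or build its inner plate, had 14 changes below 0, a median of -0.16 (0.00 within number 1 and -0.25 within number 2) and a range of -0.56 to 0.20. In 5 both arrays without LIF lay below both with LIF (15.2% of all tested genes, and 24.6% of the brightest class). In 2 both lay above (27.3% of all tested genes, and 14.8% of the brightest class). Cenpi, an inner kinetochore protein, had the smallest p. It read 1407 and 1176 with LIF and 987 and 777 without, at means of 1291 ± 163 and 882 ± 148 (SD, n = 2 each). The groups did not overlap, and the level with LIF was 1.47-fold that without (log2 change -0.56, SE 0.22, 95% interval -1.07 to -0.04, limma adjusted p = 0.423). The change was alike within the numbers, at -0.51 and -0.60.

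Cenpp and Cenpu, of a subcomplex that helps hold microtubules, were lower on both arrays without LIF, and Cenpo and Cenpq of the same subcomplex were higher on both. Cenpp read 1309 and 1531 with LIF and 1182 and 1092 without, a log2 change of -0.32 (SE 0.19). Cenpu read 1600.4 and 1759 with LIF and 1362 and 1594 without, where the groups were only just apart (log2 change -0.19). Cenpo read 398 and 416 with LIF and 443 and 486 without (log2 change 0.19), and Cenpq read 1020.1 and 1070.3 with LIF and 1187 and 1210 without (log2 change 0.20). The members of this subcomplex therefore did not share a sign, none passed the test, and with a common median per array Cenpo and Cenpq turned to -0.10 and -0.09.

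Cenpb, which binds a repeat of centromeric DNA, read 594.5 and 770.6 with LIF and 582.4 and 442.6 without. Nearly all of its difference came from the arrays numbered 2, where the log2 change was -0.80 against -0.03 within number 1. Cenps, part of a histone-fold complex, read 1127 and 1287 with LIF and 1072 and 1082 without, a log2 change of -0.16. Cenpa, the histone variant that marks the centromere, overlapped between groups, at 3873 and 4931 with LIF and 4105 and 3999 without (log2 change -0.11). Cenpm and Cenpt had larger fitted changes (-0.45 and -0.25) but wide array gaps. Cenpt read 2067 and 2531 with LIF and 1364 and 2712 without, lower without LIF within number 1 (-0.60) and higher within number 2 (0.10).

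Cenpe and Cenpf, which join the kinetochore only around mitosis, were read with 2 further Cenp genes, Cenpj of the centriole and Cenpv. The changes of the 4 were -0.25 to 0.06 and no groups stood apart. Their median of -0.12 turned to 0.12 without the array with LIF numbered 2 and to 0.03 without the array without LIF numbered 1. Cenpe, itself a kinesin-like motor that moves chromosomes to the plate, read 1498 and 2264 with LIF and 1340 and 1986 without (log2 change -0.18). Cenpf read 3056 and 2642 with LIF and 2647 and 2163 without (log2 change -0.25), with the array with LIF numbered 2 and the array without LIF numbered 1 at almost the same signal.

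The transport, cilium and other kinesins held all 3 of the 2-fold differences, in Kif21a, Kif5a and Kif1c. Of 26 on the array 21 were tested, 15 changes were above 0, and the median was 0.36 (0.53 within number 1 and 0.15 within number 2). It was 0.26 under quantile normalization, 0.07 with a common median and 0.07 with probe sets averaged per gene, and 0.23 and 0.13 without the array with LIF numbered 2 and the array without LIF numbered 1. In 7 genes both arrays without LIF lay above both with LIF, which is 33.3% of the 21, beside 27.3% of all tested genes, and in 3 below. Of the 21, 12 lay in the 2 dimmer signal classes, where 35.1% and 32.9% of all genes had both arrays without LIF above both with LIF. The change was above 0 within both numbers for 11 of the 21, as for 40.1% of all tested genes.

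**Figure D3:**
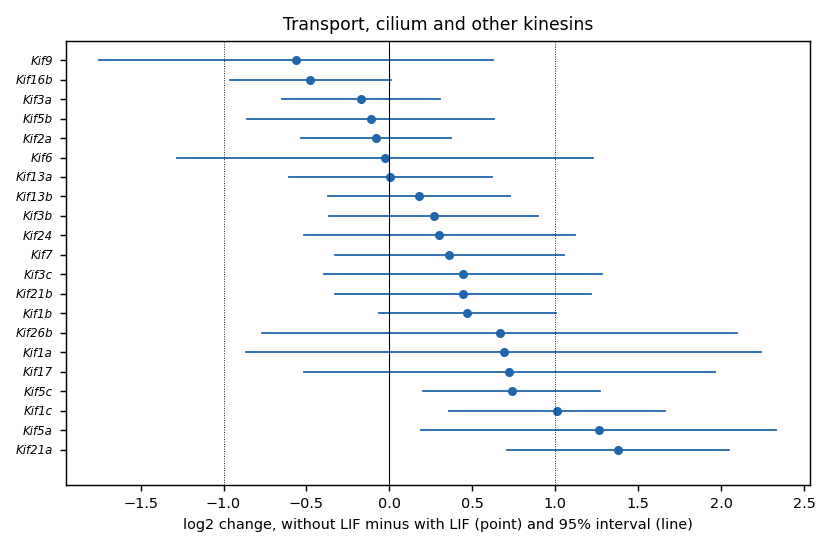
Log2 change without minus with LIF (point) with its 95% interval (line) for the 21 tested transport, cilium and other kinesins; dotted lines mark 2-fold. The intervals of Kif21a, Kif1c, Kif5c and Kif5a lie above 0, and those of dim genes such as Kif1a, Kif17 and Kif26b are wide and cross 0.

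Kif21a, a motor of neurons that restrains microtubule growth, read 221.9 and 171.0 with LIF and 570.3 and 448.9 without. The groups were far apart, at 196 ± 36.0 and 510 ± 85.8 (SD, n = 2 each), a 2.60-fold higher level without LIF. The log2 change was 1.38 (SE 0.28, 95% interval 0.71 to 2.05, limma adjusted p = 0.129), with 1.36 within number 1 and 1.39 within number 2. Its other bright probe set read 213.9 and 153.3 with LIF and 640.9 and 390.6 without, a change of 1.47.

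Kif1c, a vesicle motor found in many tissues, read 347.9 and 311.3 with LIF and 811.0 and 540.9 without. Both arrays without LIF lay above both with LIF, at 330 ± 25.9 and 676 ± 191 (SD, n = 2 each), 2.01-fold apart. The log2 change was 1.01 (SE 0.28, 95% interval 0.36 to 1.66, limma adjusted p = 0.24), and it was 1.22 within number 1 and 0.80 within number 2. Its other probe sets above the filter gave 1.76 and 1.11, but both were dim, at 8.7 and 34.3 and at 56.6 and 30.8 with LIF. Kif21a and Kif1c passed limma's test without the array without LIF numbered 2 (adjusted p = 0.0278 and 0.0369), a fit in which the lone array is assumed to vary like those with LIF and 496 of all genes passed rather than 21. With the array number as a term of the fit both passed, as did Kif5c (limma adjusted p = 0.00458, 0.0155 and 0.0387), and 6.75% of all tested genes did.

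The conventional kinesin heavy chains Kif5a, Kif5b and Kif5c carry organelles and vesicles, and Kif5a and Kif5c are known mainly from neurons. Kif5c read 474.7 and 412.1 with LIF and 790.0 and 687.5 without, a 1.67-fold higher level (log2 change 0.74, SE 0.22, limma adjusted p = 0.292). Its change was nearly the same within both numbers, 0.74 in each, but with the mean of its probe sets it was 0.01. Kif5a was dim, at 51.5 and 52.7 with LIF and 156.8 and 99.6 without (log2 change 1.26, SE 0.45, limma adjusted p = 0.375). Its other probe set above the filter gave 1.68, but its groups overlapped. That probe set was also dim, at 56.9 and 12.6 with LIF and 141.3 and 52.1 without. Kif5b, the form present in most cells, read 2108 and 1889 with LIF and 2586 and 1319 without. The arrays without LIF were here both the highest and the lowest, and the log2 change was -0.11.

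Since several of these motors are known from neurons or cilia, markers of other cell types are given beside them. The 8 neuron markers summed to 5791 and 7666 with LIF and to 3168 and 3643 without, with Tubb3 and Stmn2 at log2 changes of -0.91 and -1.32 and Map2 and Nefl at 0.88 and 0.59. Dcx lay below the filter and Snap25, Syt1 and Rbfox3 were dim, and 1 of the 7 tested markers was higher and 2 lower at an unadjusted p of 0.05. The 7 multiciliated cell markers summed to 576 and 572 with LIF and 574 and 522 without, but Foxj1 was higher on both arrays without LIF (28.2 and 38.7 against 102.2 and 92.9, a log2 change of 1.56) and Tekt1 lower on both (-0.77), neither passing the test. Fibroblast markers summed to 745 and 857 with LIF and 998 and 1053 without. Of the 7 tested, 1, Dcn, was higher at an unadjusted p of 0.05 and 0 were lower. Dcn read 67.3 and 53.1 with LIF and 172.1 and 151.3 without (log2 change 1.43). Col1a1, Pdgfra and Postn had changes below 0. The part of these markers in the kinesin changes was not tested. In these bulk samples fewer cells of a type and less RNA per cell cannot be told apart.

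**Figure D4:**
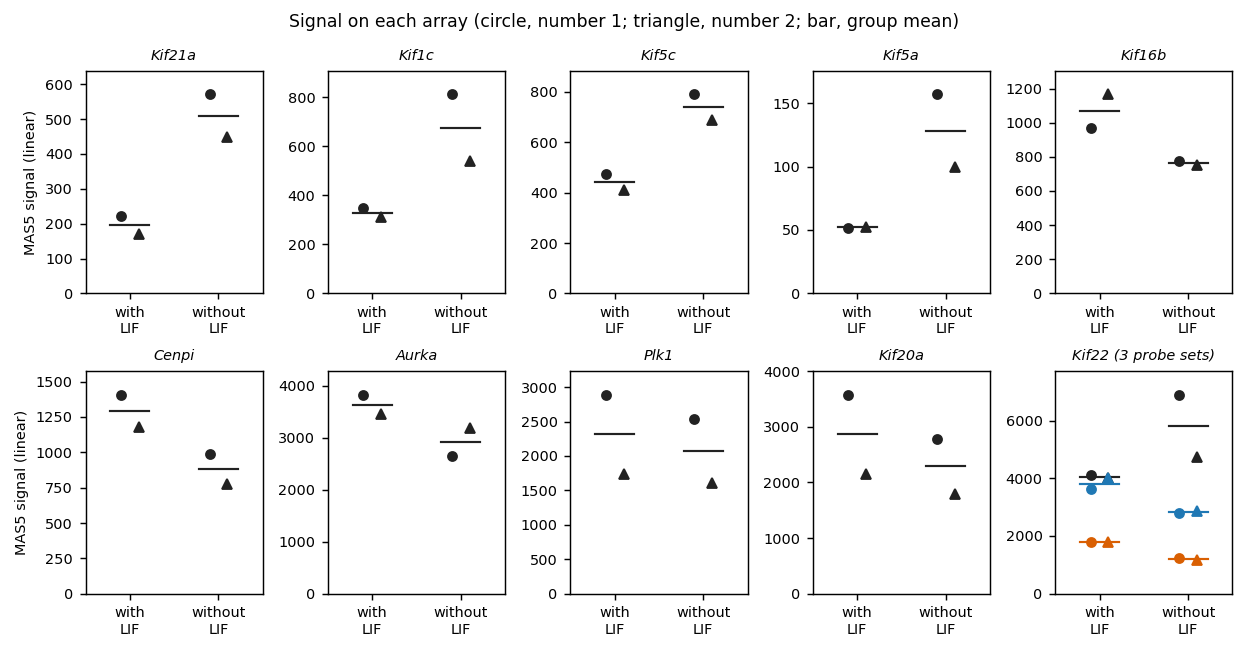
MAS5 signal on each array on linear axes from 0 for 10 genes (circle, arrays numbered 1; triangle, arrays numbered 2; bar, group mean of 2). Kif21a, Kif1c, Kif5c and Kif5a lie higher without LIF on both arrays, Plk1 and Kif20a separate by array number, and in the Kif22 panel the brightest probe set (black) lies higher without LIF while the other 2 (blue and orange) lie lower.

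Other transport kinesins had smaller or less even differences. Kif1b, a motor of mitochondria and synaptic vesicle precursors, read 386 and 419 with LIF and 580.2 and 535 without (log2 change 0.47, SE 0.23, limma adjusted p = 0.513). Further probe sets of Kif1b above the filter gave -1.01, 0.13, 0.32, -0.08, 0.11 and 0.41, so its sign depended on the probe set. Kif21b, related to Kif21a, read 121.5 and 153.8 with LIF and 184.2 and 187.9 without (log2 change 0.44). Kif16b, an endosome motor, went the other way, at 969 and 1165 with LIF and 776 and 752 without. Its groups did not overlap and its log2 change was -0.48 (SE 0.21, limma adjusted p = 0.47). Its other probe sets disagreed: 1 gave -0.25, and a dim one, at 65.4 and 51.6 with LIF and 104.8 and 78.2 without, gave 0.64. Kif9, a motor of motile cilia, was also lower on both arrays without LIF, at 63.9 and 72.8 against 50.5 and 42.2, with an interval that crossed 0 (log2 change -0.56, SE 0.50).

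Read from their brightest probe sets, subunits of the kinesin-2 motor that builds cilia did not share a sign. Kif3a read 819 and 927 with LIF and 770.3 and 779 without (log2 change -0.17), whereas its partner Kif3b read 279 and 237 with LIF and 322 and 297 without (log2 change 0.27), and the groups of both stood apart. For Kif3a, further probe sets above the filter gave 0.03, 0.30 and -0.23, so its sign depended on the probe set. Those of Kif3b gave 0.31, 0.02 and 0.78. Kif3c had a change of 0.44 with overlapping groups, as had Kif7, a cilium protein of Hedgehog signalling, at 0.36. Kif17, Kif1a and Kif26b were dim and had changes of 0.72, 0.69 and 0.66. Within number 1 these were 1.47, 1.55 and 1.39, and within number 2 they were -0.02, -0.17 and -0.06. Other probe sets above the filter gave 1.05 for Kif17 and 2.45 for Kif1a, both with the 2 arrays without LIF above the 2 with LIF. These probe sets were also dim: with LIF they read 20.2 and 41.2 for Kif17 and 25.1 and 6.9 for Kif1a.

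The kinesins below the filter were Kif12, Kif15, Kif26a, Kif27, Kif28 and Kif2b. Kif12 read 52.7 and 1.1 with LIF and 74.9 and 49.8 without, and Kif27 read 47.4 and 7.5 with LIF and 36.8 and 10.4 without, so the lower array of a pair was near the floor of the signal. Kif26a, Kif28 and Kif2b read at most 18.4 on any array.

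**Figure D5:**
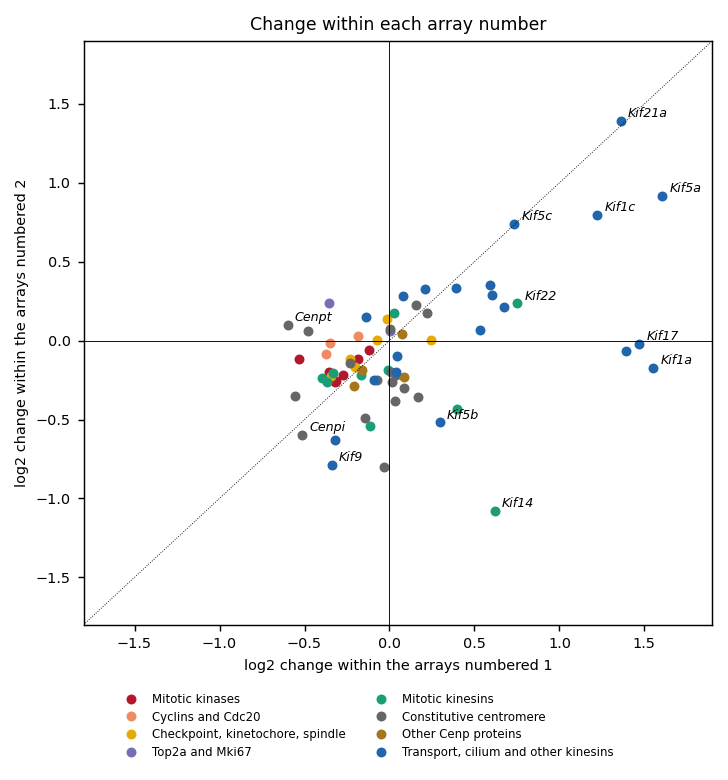
Log2 change without minus with LIF within the arrays numbered 1 (horizontal) and numbered 2 (vertical) for the 70 tested genes, coloured by role; the dotted line marks equality. In the lower left quadrant lie 29 genes, lower without LIF within both numbers, and in the upper right 19; Kif21a lies on the line, and Kif17 and Kif1a lie far to the right near a vertical value of 0.

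Within both array numbers 29 of the 70 genes were lower without LIF and 19 were higher. Of all tested genes 24.9% were lower and 40.1% higher. Among the 49 mitotic and centromere genes these counts were 26 and 8. Of the 49, 38 lay in the brightest signal class, where 59.4% of all genes had a change below 0. The medians of the 49 were -0.15 within number 1 and -0.20 within number 2, where all tested genes had 0.11 and 0.06. The brightest class had -0.09 and -0.02. In 27 of the 49, arrays of different number lay farther apart than the groups did.

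Probe sets of the same gene share its RNA and are not replicates. The 76 genes had 174 probe sets, and 45 genes had several. Of 79 other probe sets above the filter, 51 had the same sign as the brightest one and 28, in 22 genes, the opposite. Kif22 was described above, and for Kif11 the other probe sets gave -0.17 and -0.50 beside -0.19.

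Other genes of mitosis, not chosen by the Kif or Cenp names, gave 97 tested genes in 5 lists, and none passed the test at an adjusted p of 0.05. At an unadjusted p of 0.05, 2 were higher without LIF (7.16% of all tested genes) and 5 lower (3.73% of all). Both arrays without LIF lay below both with LIF in 38 (15.2% of all tested genes, and 24.6% of the brightest class) and above in 10 (27.3% of all). The 7 genes at an unadjusted p of 0.05 became 3 without the array with LIF numbered 2. The median log2 change was -0.13 (-0.16 within number 1 and -0.10 within number 2). Groups stood apart on the lower side for 8 of 25 kinetochore and checkpoint genes, 9 of 19 of the anaphase-promoting complex and separase, 10 of 19 of condensin and cohesin, 9 of 21 of the spindle and cytokinesis, and 2 of 13 of mitotic entry and its transcription, to be read against the same 15.2% and 24.6%.

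Mybl2, the transcription factor B-Myb that binds late cell cycle promoters, had the smallest p of the 97. It read 4188 and 3342 with LIF and 1773 and 1870 without, a log2 change of -1.04 (SE 0.19, limma adjusted p = 0.0985), and its groups did not overlap. It also passed when either array without LIF was left out, but the lone array is then assumed to vary like those with LIF, and 303 and 496 of all genes passed in these fits. Stag2, a cohesin subunit, was the one bright gene of the lists with a large difference upwards, at 1524 and 1309 with LIF and 2789 and 2660.4 without (log2 change 0.95, limma adjusted p = 0.114). Cep55, which recruits the abscission machinery, read 4412 and 4038 with LIF and 2399 and 2338 without (log2 change -0.83, limma adjusted p = 0.123). Anapc10, a subunit of the anaphase-promoting complex, read 5651 and 6274 with LIF and 3446 and 3862 without (log2 change -0.71, limma adjusted p = 0.186).

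The groups of these 4 genes stood clear of each other, and with the array number as a term of the fit all 4 passed, as did Fbxo5 and Ube2s. These are 6 of 97, where 6.75% of all tested genes passed. Fbxo5, an inhibitor of that complex also called Emi1, had a log2 change of -0.49 (limma adjusted p = 0.361). Ect2 and Racgap1, partners of Kif23 at the central spindle, had changes of -0.47 and -0.41, beside -0.27 for Kif23 itself, but with probe sets averaged Racgap1 turned to 0.43. Zw10 of the kinetochore and Wapl, which releases cohesin, had changes of -0.41 and -0.42. Lin52, a subunit of the complex that works with B-Myb, was dim, at 41.6 and 6.8 with LIF and 131.4 and 57.2 without.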

How the data were processed

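Total RNA of 4 samples was read on Affymetrix arrays. The deposited values were linear signal intensities that the authors made with MAS5, per the submitters' processing notes, and the sources used here give no version. This method scales the mean of each array, which bright probe sets dominate, and leaves dim signals unaligned, so changes of dim and bright genes are not on an equal footing. Array precision is limited by 2 arrays a group. Of 45101 probe sets 64 were controls and 34945 had 1 symbol. Each gene was read from its brightest probe set over the arrays, 1 value at or below 0 was raised to the smallest positive value, and genes above the 30th percentile (a log2 of 4.51, a signal of 22.9) were tested. All 76 genes matched the RefSeq table of GRCm38.p6 by Entrez identifier, which changed 0 symbols.

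Groups were compared in R 4.3.3 using the limma package, version 3.58.1 (a linear model and eBayes with trend, two-sided, with only LIF in the model and 2 residual degrees of freedom), with Benjamini-Hochberg adjustment over 14445 genes. The script was tested on simulated data. SE is the moderated standard error. Motifs were counted and figures drawn with Python 3.11.15 and matplotlib 3.10.9. Genes named were the regulators of the rule, Kif and Cenp genes at an unadjusted p of 0.05, the 4 largest changes either way per family among groups that did not overlap, and the 10 smallest p of the mitosis lists, and other members by role. The members and lists were chosen with earlier results of these data known, so their direction is not independent evidence. Alternatives covered the filter, a pseudocount, the scaling, the eBayes settings, the choice of probe set, the array number as a block and each array left out.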

Additional observations from a re-analysis of the deposited data

How the results depend on the processing

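With 2 arrays a group the count of members past an adjusted p of 0.05 was 0, at an unadjusted p of 0.05 it was 5, and 3 differed by 2-fold. Without single arrays these ranged from 0 to 2, from 2 to 9 and from 1 to 5. For the 97 mitosis genes the counts were 0 and 7, ranging from 0 to 1 and from 3 to 10. With the replicate number as a block the counts were 3 and 14 for members and 6 and 23 for the lists, and combined with quantile normalization, a choice made after seeing the data, 2 and 8, and 4 and 20. No label pairs the arrays, and deviations of the same number correlated at 0.291 in the 2 pairs. A common median per array gave 1 member at an unadjusted p of 0.05 and 1 at 2-fold, and 4 list genes at an unadjusted p of 0.05, as many as eBayes without the trend gave; the mean of probe sets gave 1 member at an unadjusted p of 0.05.

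The median of all members was -0.39 with a common median per array, and medians by role were then -0.45 and -0.41 for constitutive and other centromere genes, -0.40 for checkpoint proteins, -0.30 for Top2a and Mki67, -0.48 for cyclins and Cdc20, -0.57 for kinases and -0.50 for mitotic kinesins. Signs there reversed for Bub3 (-0.23), Nuf2 (-0.17), Mki67 (-0.26), Cenpo (-0.10) and Cenpq (-0.094). Under quantile normalization, with or without the block, the checkpoint median was -0.034, and Cdc20 (0.020), Mad2l1 (0.033) and Top2a (0.032) reversed. With the mean of probe sets the kinase median was -0.089 and Bub1b (0.19), Bub3 (-0.0013), Ttk (0.019), Top2a (0.13) and Racgap1 (0.43) reversed. Without single arrays the checkpoint median ran from -0.23 to 0.040 and that of the other Cenp genes from -0.20 to 0.12, and changes of both signs were seen for Plk1 (-0.51 to 0.21), Mki67 (-0.10 to 0.16), Bub3 (-0.031 to 0.16), Cdk1 (-0.31 to 0.13), Ndc80 (-0.42 to 0.069), Mad2l1 (-0.15 to 0.084), Cdc20 (-0.24 to 0.082) and Top2a (-0.41 to 0.29). The causes were not tested. A promoter window from 150 bases before the start lowered the share of tested genes with CHR letters to 9.70% and with CCAAT to 34.6%, as the window is shorter. An adjusted p of 0.1 gave 0 members.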
